A study of Homo sapiens with 24 samples.

Results

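The regions described here are the places at gene ends where both TR4 and BCL11A gave peaks in every way they were profiled. Overlapping peaks from the 24 libraries (1 shared base or more) were joined into 79570 regions, and the 7349 with a peak in an IgG library were set aside. A region was kept when it had a peak in at least 2 of 3 libraries in each of 6 groups, lay on chromosomes 1 to 22 or X, and came within 1 kb of the start or end of a protein-coding gene record on GRCh38. That left 3203 core regions, 4.44% of the 72221 regions without an IgG peak. The regions were thus chosen by measured values, the presence of deposited peaks in those 18 libraries and their absence in IgG. Their presence there is a description and not a finding.

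The libraries are CUT&RUN, in which an antibody tethers a nuclease to chromatin and the DNA cut loose around the bound protein is sequenced. The cells were of the human erythroid line HUDEP-2, an established line of immortalized progenitors, in 3 genome-edited versions that are each 1 clone. All groups were expanded in the same medium, with SCF, EPO, dexamethasone and doxycycline, and had no other treatment. In clone T, TR4 (a nuclear receptor encoded by NR2C2) bears a C-terminal 3FLAG+3MYC tag, in clone B, BCL11A bears a 3HA+3MYC tag, and clone TB has both tagged proteins. The 6 groups were MYC clone T, TR4 clone T and TR4 clone TB, called TR4-directed, and MYC clone B, HA clone B and HA clone TB, called BCL11A-directed. A further group, MYC clone TB, sees both tagged proteins. Its peaks were joined with the others when regions were formed, but no region needed one to be kept. Each clone also has 1 IgG library. Nothing in the labels ties the 3 replicates of a group to separate cultures. The p-values therefore speak to the spread among these libraries alone, and that spread may be technical.

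TR4 is an orphan nuclear receptor that binds direct repeats of the motif AGGTCA and is known in red cells as a repressor of the embryonic and fetal globin genes. BCL11A is a zinc finger repressor that silences the fetal globin genes in adult erythroid cells by binding the motif TGACCA at their promoters and recruiting the NuRD corepressor complex. Both proteins can therefore act at promoters, which lie at the 5′ end of a gene. The study asked how TR4 may repress γ-globin and set its binding beside that of BCL11A.

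Replicate 3 stood apart in each of the 6 groups. Its lists held 4621 to 6944 peaks in the TR4-directed groups, against 8832 to 14924 in replicates 1 and 2, and 12284 to 15163 in the BCL11A-directed groups, against 24078 to 31432. Between 58.8% and 81.9% of the core regions had a peak in a replicate 3 library, and 98.8% to 100% in the others. Read depth is unknown. The number of core regions depends on these lists: 3077 were found without replicate 3, 520 with each list cut to its strongest 4621 peaks, 1876 and 1874 without MYC clone T replicate 1 or 2, and 2134 without TR4 clone T replicate 2. Of the 10 erythroid marker genes listed for HUDEP-2, 9 had a peak of some target library at an end, against 58.6% of all protein-coding genes, and 1 of 4 markers of other cell types did. KLF1 and EPOR were the 2 erythroid markers with a core region. Occupancy is not expression.

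The promoters printed next carry the results that follow: regions that ranked high for TR4 and low for BCL11A, regions with the opposite order, and regions that ranked high for both. Each run is the 250 bases before a RefSeq transcript start (GRCh38.p14), 5′ to 3′ on the strand of the gene. Capitals mark the nuclear receptor motif AGGTCA (or TGACCT on the other strand), the ETS motif CCGGAAGT (or ACTTCCGG) and the CCAAT box (or ATTGG). The first 6 follow the naming rule. PTAR1, SGTA, TPRN and CALR were added after their matches were seen.

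NAA15, chr4:139301255-139301504, + strand: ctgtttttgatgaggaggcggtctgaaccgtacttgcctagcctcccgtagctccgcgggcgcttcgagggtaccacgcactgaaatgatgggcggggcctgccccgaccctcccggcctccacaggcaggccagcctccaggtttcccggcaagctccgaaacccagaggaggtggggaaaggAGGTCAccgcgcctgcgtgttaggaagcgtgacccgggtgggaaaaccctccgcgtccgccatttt
DPP9, chr19:4723843-4724092, − strand: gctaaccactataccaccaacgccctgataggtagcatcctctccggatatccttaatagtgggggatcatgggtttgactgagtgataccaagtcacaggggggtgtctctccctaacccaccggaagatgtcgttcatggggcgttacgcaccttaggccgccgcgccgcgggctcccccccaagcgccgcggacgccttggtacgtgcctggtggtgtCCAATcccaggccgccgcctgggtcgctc
TBC1D12, chr10:94402291-94402540, + strand: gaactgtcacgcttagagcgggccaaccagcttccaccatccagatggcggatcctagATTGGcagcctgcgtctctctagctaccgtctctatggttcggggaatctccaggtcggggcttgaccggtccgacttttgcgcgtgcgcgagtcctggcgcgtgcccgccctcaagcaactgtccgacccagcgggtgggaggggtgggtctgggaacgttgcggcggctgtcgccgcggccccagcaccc
ZNF184, chr6:27473106-27473355, − strand: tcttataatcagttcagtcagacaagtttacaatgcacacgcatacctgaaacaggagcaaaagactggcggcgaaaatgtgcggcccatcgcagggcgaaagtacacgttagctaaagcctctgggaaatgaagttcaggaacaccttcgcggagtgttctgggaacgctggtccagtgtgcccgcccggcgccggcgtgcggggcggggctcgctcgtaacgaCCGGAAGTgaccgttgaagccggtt
KMT5A, chr12:123383882-123384131, + strand: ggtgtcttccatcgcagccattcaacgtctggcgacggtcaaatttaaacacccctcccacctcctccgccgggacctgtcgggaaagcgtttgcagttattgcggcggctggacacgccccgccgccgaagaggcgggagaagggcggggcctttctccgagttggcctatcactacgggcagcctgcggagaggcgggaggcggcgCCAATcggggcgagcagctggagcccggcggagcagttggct
SHC1, chr1:154974377-154974626, − strand: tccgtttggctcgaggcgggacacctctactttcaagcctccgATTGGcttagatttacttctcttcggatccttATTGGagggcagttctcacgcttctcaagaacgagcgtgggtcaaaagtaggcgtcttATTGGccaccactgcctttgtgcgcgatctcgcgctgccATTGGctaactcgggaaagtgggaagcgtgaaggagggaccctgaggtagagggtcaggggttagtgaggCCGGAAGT
PTAR1, chr9:69760012-69760261, − strand: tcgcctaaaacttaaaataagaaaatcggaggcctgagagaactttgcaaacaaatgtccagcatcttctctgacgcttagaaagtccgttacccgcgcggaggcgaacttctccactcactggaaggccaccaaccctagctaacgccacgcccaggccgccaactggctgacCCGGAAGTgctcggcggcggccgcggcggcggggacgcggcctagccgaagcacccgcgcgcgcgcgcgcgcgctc
SGTA, chr19:2783274-2783523, − strand: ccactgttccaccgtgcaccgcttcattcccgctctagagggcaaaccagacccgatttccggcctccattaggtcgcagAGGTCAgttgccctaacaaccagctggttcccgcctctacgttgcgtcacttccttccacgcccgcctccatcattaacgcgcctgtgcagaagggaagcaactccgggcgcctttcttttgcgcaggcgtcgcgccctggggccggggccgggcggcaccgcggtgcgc
TPRN, chr9:137200742-137200991, − strand: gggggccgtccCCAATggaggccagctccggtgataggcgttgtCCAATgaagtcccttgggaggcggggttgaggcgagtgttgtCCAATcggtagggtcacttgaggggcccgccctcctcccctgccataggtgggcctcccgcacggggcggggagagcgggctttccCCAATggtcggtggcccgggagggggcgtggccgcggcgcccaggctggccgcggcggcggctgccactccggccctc
CALR, chr19:12938359-12938608, + strand: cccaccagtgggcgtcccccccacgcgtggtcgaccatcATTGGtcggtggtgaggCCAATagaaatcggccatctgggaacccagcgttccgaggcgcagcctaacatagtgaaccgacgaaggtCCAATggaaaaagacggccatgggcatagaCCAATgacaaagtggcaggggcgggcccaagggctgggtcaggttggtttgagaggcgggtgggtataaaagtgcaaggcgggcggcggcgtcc

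At NAA15 the AGGTCA match began 66 bases before the start, and the median summits of both proteins lay 84 bases before it. At SGTA the match began 170 bases before the start, with the TR4 summit at 185 bases and the BCL11A summit at 195 bases. PTAR1 had an ETS match at 76 bases and a TR4 summit at 84 bases. Matches did not sort by lean in the promoters taken by rule. TBC1D12, which leans to BCL11A, had its CCAAT box at 192 bases, nearer the TR4 summit at 202 bases than the BCL11A summit at 118. DPP9, which leans to TR4, had a CCAAT box alone (29 bases), and ZNF184, which leans to BCL11A, an ETS match alone (25 bases). CALR and TPRN each had 4 CCAAT boxes in the window. The nearest of them to the BCL11A summit began at 124 bases for a summit at 114 bases (CALR) and at 164 bases for a summit at 171 bases (TPRN). The TR4 summit lay at 95 bases in CALR, beside the box at 94 bases, and at 170 bases in TPRN. The CCAAT boxes of CALR and TPRN thus do not set BCL11A apart from TR4. The window of KMT5A ends short of its summits, which both lay 337 bases before the start. At ZNF184 both summits lay past the start, 78 bases for TR4 and 26 for BCL11A, and at SHC1 the TR4 summit lay 30 bases before the start and the BCL11A summit 581 bases past it.

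Core regions were mostly at gene starts. Of the 4451 core regions on these chromosomes, 72% reached a gene end, against 25.5% of all regions without an IgG peak. Gene ends were part of the rule, but which end was not. For 2788 core regions a strand was known for a gene at the region. Of these, 96.8% touched the 1 kb window of a 5′ end and 89 touched 3′ ends alone. The share at a 5′ end was 90.2% over all 15043 regions at gene ends with a strand, so most regions at gene ends share this placement. Seen from the genes, 18.8% of 5′ ends had a core region, and 0.557% of 3′ ends had one that lay at no 5′ end. A group of 462 core regions (16.6%) lay at 5′ ends of genes on both strands, as divergent promoters do. The median core region was 410 bases wide (quartiles 321 and 541), against 111 bases over all regions. By the rule a core region joins peaks of at least 12 libraries, so a greater width is partly built in. Core regions away from gene ends were about as wide, with a median of 393 bases (quartiles 300 and 541).

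In all, 3669 of 19974 protein-coding genes (18.4%) had a core region at an end. Chromosome 19, which is dense in genes and in zinc finger genes, held 494 of the core regions, and 36% of its genes (522 of 1451) had one. On the X chromosome the share was 7.43%, the lowest of these chromosomes, and next to chromosome 19 came chromosome 22 with 24.2%. At 819 core regions (25.6%) the ends of 2 or more genes lay in reach, so a region cannot always be given to 1 gene.

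Genes of basic cell machinery carried core regions more often than the 18.4% of all genes, and 2 large gene families of other tissues carried none. The lists were not tested, so these are counts against that background. In oxidative phosphorylation, 23 of 41 genes of complexes II to V (56.1%) and 13 of 36 genes of complex I (36.1%) had one, among them ATP5F1B, the catalytic subunit of ATP synthase, and SDHB of succinate dehydrogenase. Of the spliceosome core 21 of 42 had one, of translation initiation factors 25 of 55, of the mitochondrial ribosome 29 of 78 and of the cytosolic ribosome 33 of 87. Among 31 genes known to regulate globin, 17 (54.8%) had a core region, including the genes of both profiled proteins. The list of haem and iron genes had 11 of 30, with FECH, which inserts iron into haem, and ALAD and PPOX of haem synthesis. Red cell membrane genes were low at 2 of 21 (STOM and SLC2A1). No olfactory receptor gene (0 of 390) and no keratin gene (0 of 55) had a core region. A peak of some target library at an end was more common, at 58.6% of all protein-coding genes. It was found at 31 of 31 globin regulators, 24 of 24 erythroid factors and 17 of 21 red cell membrane genes, against 12 of 390 olfactory receptor genes. Machinery lists stood high here too, with 83 of 87 cytosolic and 74 of 78 mitochondrial ribosome genes. Complexes II to V had 39 of 41, complex I 33 of 36, the spliceosome core 39 of 42 and translation initiation 51 of 55. These lists thus stood high for peaks in general as well as for core regions. Whether their excess in core regions goes beyond the general excess of peaks was not tested.

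**Figure D1:**
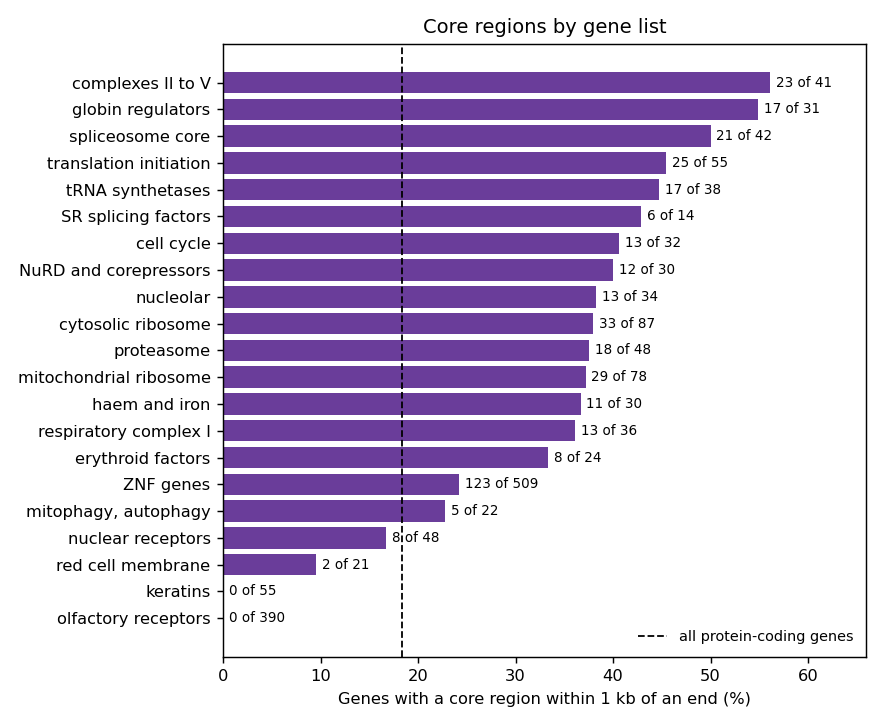
Share of the genes of each list with a core region within 1 kb of an end (percent, horizontal axis), with the count beside each bar and all protein-coding genes as a dashed line at 18.4%. Complexes II to V reach 56.1% and globin regulators 54.8%, while red cell membrane genes stay at 2 of 21 and olfactory receptors and keratins at 0.

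The MYC libraries of clone TB had peaks at every core region. No such peak was needed to keep a region, although these peaks helped set the bounds of the joined regions. All 3203 had a MYC peak in at least 2 of the 3 libraries, against 28.3% of regions without an IgG peak, and 3178 had one in 3 of 3, against 20%. The regions behind the 28.3% and 20% did not have to meet the peak rule. The 1248 core regions away from gene ends did the same, with 1248 in at least 2 libraries. Regions at gene ends that met the rule for 1 protein alone mostly had these MYC peaks too. The share was 96% of 645 regions with all 3 TR4-directed groups and 91.2% of 3700 with all 3 BCL11A-directed groups.

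A peak in all 18 libraries was found at 1078 core regions. At 984 core regions peaks were missing in TR4-directed libraries alone, at 417 in BCL11A-directed libraries alone, and at 724 in both. The threshold of 2 of 3 left 50 regions just inside, with a peak in 12 of 18 libraries. These include RPL19 of the cytosolic ribosome (median fold over its peaks 15) and XYLT2 (13.6). Just outside, 1077 regions at gene ends missed in 1 group alone, which was TR4 clone T for 302, MYC clone T for 259 and TR4 clone TB for 255. MYC clone B was the missing group for 32, HA clone B for 64 and HA clone TB for 165. Strong regions could fall outside in this way. ARL6IP6 (median fold 91.7), EFL1 (47.7) and TIPRL (32.1) had peaks in 16 of 18 libraries but in 1 of the 3 HA libraries of clone TB. Such folds were not typical. The median region of the 1077 just outside had a fold of 10.04, close to 9.86 at the median of the 50 just inside.

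The next question was whether a core region strong for one protein was strong for the other. Folds in separate peak lists are not on one scale. The strongest peak of each region was therefore ranked by fold within each library, over the same 1453 regions with a peak in all 18 libraries, of which 1078 are core regions at gene ends. A rank of 100 is the strongest. Ranks sum to the same total in each library, so a gain in some regions is balanced by a loss in others, and equal numbers in both directions are partly built in. Among these regions the ranks of the 2 proteins were nearly unrelated. Each region had to pass the peak cut for both proteins in every library, which can lower a correlation. How far it did so was not tested. The median fold over peaks was 18.2 at core regions with a peak in all 18 libraries. It was 9.86 at those with a peak in 12 of 18. Across the 1078 core regions, the mean TR4-directed and mean BCL11A-directed ranks had r = 0.0594. Between single libraries r was 0.684 to 0.9 within a group, 0.343 to 0.82 between groups of the same protein, and −0.0588 to 0.175 between proteins. These are descriptions over regions, and libraries of 1 clone share their cells.

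A region was called TR4-leaning or BCL11A-leaning when the mean TR4-directed rank differed from the mean BCL11A-directed rank at an adjusted p under 0.05 (limma, Benjamini-Hochberg over 1453 regions). Of the 1078 core regions, 347 were TR4-leaning and 347 BCL11A-leaning, and 384 were not called. Over all 1453 regions 64.6% were called, 30.7% TR4-leaning and 33.9% BCL11A-leaning. In either direction together, core regions at gene ends leaned about as often as the 375 other regions (64.4% and 65.3%). By direction the shares were 32.2% TR4-leaning and 32.2% BCL11A-leaning at gene ends, against 26.4% and 38.9% of the others (99 and 146 regions). This difference was not tested. The median absolute difference was 21.6 rank points, and 1 in 10 core regions exceeded 56.2 points. All 9 TR4-directed ranks lay above all 9 BCL11A-directed ranks at 149 core regions, where 12.3% of all tested regions did so, and below them at 94, where 9.64% did. Without replicate 3, 3077 core regions could be ranked, and 978 were TR4-leaning and 972 BCL11A-leaning. Of the 694 calls above, 594 were called in the same direction there, 100 were lost and 0 were reversed.

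**Figure D2:**
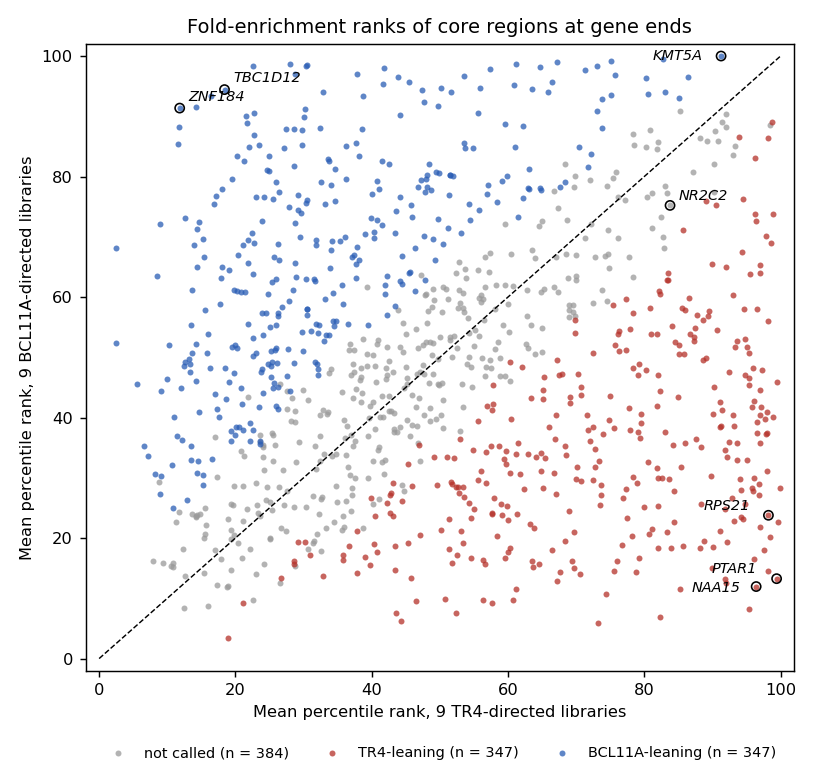
Each point is 1 of the 1078 core regions with a peak in all 18 libraries: mean percentile rank of the fold in the 9 TR4-directed libraries (horizontal) and in the 9 BCL11A-directed libraries (vertical), coloured by call, with equal ranks as a dashed line. The points fill the square (r = 0.0594), and 46 regions have a mean rank over 75 for both proteins.

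The 8 TR4-leaning regions with the lowest p are described first. NAA15, the auxiliary subunit of the NatA N-terminal acetyltransferase, shares its region (chr4:139301215-139301583) with NDUFC1, a complex I subunit. With the TR4 antibody the folds at NAA15 were 131, 167 and 60.9 in clone T and 173, 200 and 116 in clone TB. The HA antibody gave 11.5, 14.4 and 6.35 in clone B, against 10.2, 10.9 and 6.86 in clone TB. The TR4-directed ranks ran from 93.7 to 98.4 (median 97.3) and the BCL11A-directed ranks from 1.79 to 20 (median 14.1). No rank of one protein came near those of the other, and the difference was 84.5 ± 3.06 points (SE, adjusted p = 5.04e-13).

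DPP9, a dipeptidyl peptidase, had the largest difference of the named regions, 87.1 ± 3.5 points. Its TR4-directed ranks were 85.6 to 99.2 (median 96.4) and its BCL11A-directed ranks 0.619 to 19.3 (median 4.37). PTAR1, a prenyltransferase subunit, ranked between 99 and 99.9 in all 9 TR4-directed libraries and between 1.86 and 27.4 in the BCL11A-directed ones. HUS1, part of the DNA damage checkpoint clamp, differed by 83.6 ± 4.1 points. ZXDC, a zinc finger regulator, differed by 75.4 ± 3.82 points from lower TR4 ranks of 65.7 to 93.1. NCLN, an endoplasmic reticulum membrane protein, differed by 69.9 ± 3.52 points. SCAP, the sterol sensor that escorts SREBP, differed by 67.8 ± 3.41 points, and its BCL11A-directed ranks spread from 2.51 to 51.8. The SCAP region lies 819 bases from the gene end. EIF2A, a translation initiation factor, differed by 67 ± 3.06 points. In all 8 the ranks of the proteins did not overlap, which the choice by lowest p largely brings about.

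Of the BCL11A-leaning regions with the lowest p, 7 are described. TBC1D12, of a family of Rab GTPase activators, is at chr10:94402238-94403268. Its folds with the HA antibody were 43.6, 47.1 and 20.4 (clone B) and 55.5, 53.9 and 56 (clone TB). With the TR4 antibody they were 12.6, 10.7 and 6.33 in clone T and 13.7, 6.81 and 8.99 in clone TB. BCL11A-directed ranks ran from 90.6 to 99.7 and TR4-directed ranks from 3.96 to 31.5, with no overlap and a difference of −76 ± 3.72 points (adjusted p = 2.02e-11). ZNF184, a KRAB-type zinc finger gene, differed by −79.5 ± 4.3 points. The histone gene H2BC5 differed by −76.9 ± 4.73 points. TENT5B, a terminal nucleotidyltransferase, differed by −68.2 ± 4.22 points. TPRN (taperin) differed by −67.9 ± 4.12, CALR, the chaperone calreticulin, by −67.8 ± 3.75, and PLA2G6, a phospholipase, by −65.7 ± 3.56.

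Some of these regions had a wide spread for 1 protein. At TPRN the TR4-directed ranks ran from 5.99 to 76.9 with a median of 8.6, and at CALR from 0.275 to 65.2. At PLA2G6 the lean came from very low TR4 ranks, 0.207 to 6.88, against BCL11A ranks of 36.1 to 93.6. The TR4-directed and BCL11A-directed ranks did not overlap in any of the 7, again largely a result of the choice by lowest p.

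Some core regions ranked high for both. A mean rank over 75 for both proteins was found at 46 core regions, while 228 passed 75 for TR4 and 180 for BCL11A. Another 38 had a mean rank over 75 for TR4 and under 25 for BCL11A, and 24 had the reverse. These counts cover core regions alone, without a share over all 1453 regions. Whether 46 exceeds what unrelated ranks give was not tested. KMT5A, a histone methyltransferase gene (chr12:123383326-123384205), was the strongest of the 1453 regions in all 9 BCL11A-directed libraries, with folds of 85.3 to 232. Its TR4-directed ranks were 87.5 to 96.4, and the lean to BCL11A was small but called (−8.73 ± 3.06 points, adjusted p = 0.0184). SHC1, the adaptor of receptor tyrosine kinases, shares its region with CKS1B. It ranked 97.4 to 99.6 for TR4 and 80.6 to 94.5 for BCL11A (9.58 ± 3.16 points, adjusted p = 0.0131). UPF3A of nonsense-mediated decay leaned to BCL11A (−16.8 ± 3.36 points), and SGTA, a co-chaperone, to TR4 (7.35 ± 3.15 points, adjusted p = 0.0494). ANAPC15 of the anaphase-promoting complex (1.61 ± 3.22 points) and C19orf67 (9.9 ± 5.12 points) were not called.

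**Figure D3:**
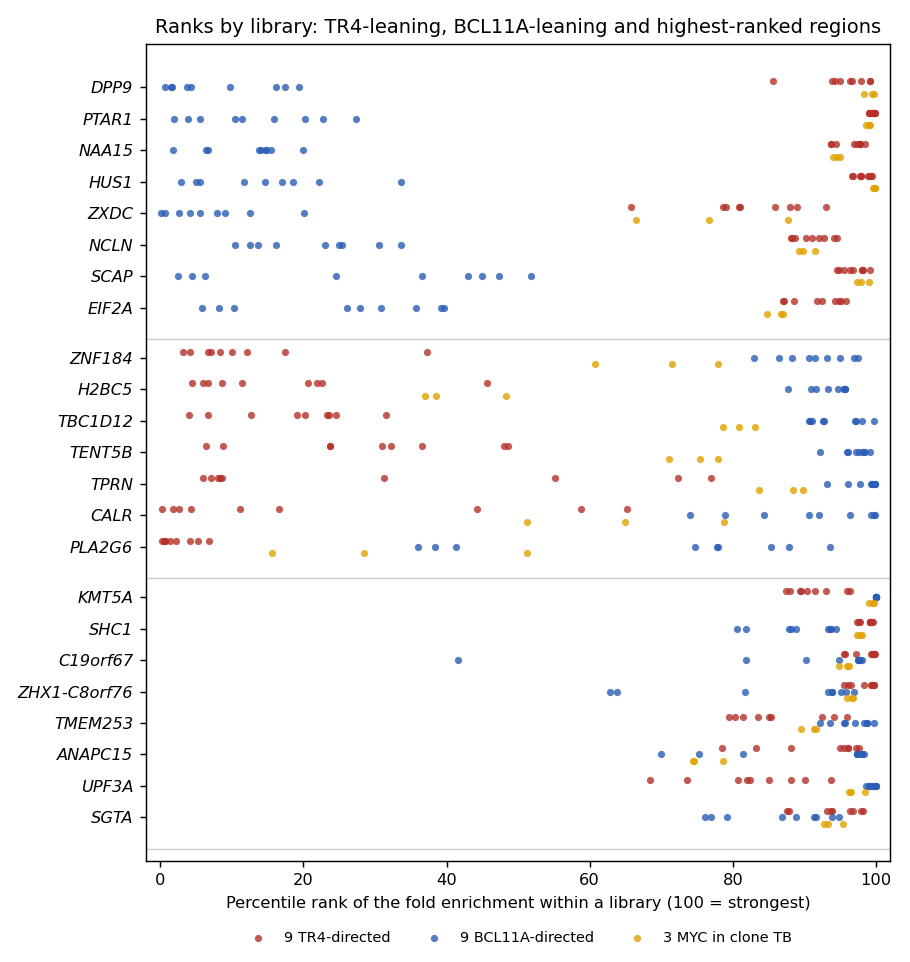
Percentile rank in each library (horizontal axis, 100 = strongest) for the 8 TR4-leaning, 7 BCL11A-leaning and the 8 highest-ranked core regions, with TR4-directed, BCL11A-directed and MYC clone TB libraries in 3 colours. In the upper 2 blocks, chosen by lowest p from these same ranks, the colours of the 2 proteins do not overlap. KMT5A has all 9 BCL11A-directed points at 100.

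Core regions of the mitochondrial ribosome leaned mostly to TR4. Listed genes named from here on outside the naming rule were chosen after their values were seen, and the lists carry no test of their own. Of the 10 regions that could be ranked, 8 were TR4-leaning and 1 BCL11A-leaning, with a median difference of 43.8 points against −1.68 over all tested regions. MRPS28, a small-subunit protein, had mean ranks of 97.7 for TR4 and 39.7 for BCL11A (58.1 ± 4.98 points). MRPL18 differed by 66.2 ± 7.27 points and MRPS10 by 43.3 ± 7.08. MRPL36 shares its region with NDUFS6 of complex I (69.1 ± 5.55 points), and MRPL49 shares one with FAU of the cytosolic ribosome (46.4 ± 4.81), so 2 of the 8 count for other lists too. MRPL34 was the BCL11A-leaning one at −31.1 ± 4.63 points, and MRPL4 was not called (mean ranks 93.1 and 83.7).

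The counts that follow stand against 30.7% TR4-leaning and 33.9% BCL11A-leaning of all tested regions, and most lists are small. Nucleolar genes had 4 TR4-leaning and 0 BCL11A-leaning among 6 ranked regions: NOP2, RRS1, NHP2 and NOLC1, which work in ribosome biogenesis, differed by 31.8 to 52.6 points. Translation initiation factors had 6 and 3 of 10. EIF3H (62.1 ± 6.74 points) and EIF2B2 (54.5 ± 6.92) joined EIF2A on the TR4 side, and EIF5A (−20.1 ± 4.82), EIF4A1 and EIF4E1B were on the BCL11A side. Nuclear receptor genes had 3 TR4-leaning, 0 BCL11A-leaning and 3 not called of 6 regions. The called regions were 2 at ESRRA and 1 at NR1H2 (54.6 ± 6.82 points), a sterol receptor.

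Other machinery was divided. Cytosolic ribosome genes had 7 TR4-leaning and 5 BCL11A-leaning of 15 regions. RPS21 (74.4 ± 4.22 points) and RPL31 (71.6 ± 4.35) stood at one end, and RPL13A (−62.8 ± 5.67) and RPS16 (−57.9 ± 5.41) at the other. At RPS19, mutated in Diamond-Blackfan anaemia, 1 region leaned to TR4 (62.4 ± 4.27 points) and a second was not called. Spliceosome genes had 4 and 4 of 11, from PRPF6 (53.4 ± 6.01) to U2AF2 (−60.6 ± 3.9). Complex I had 3 and 3 of 8, with the regions shared with NAA15 and MRPL36 and that of NDUFB7 (60.7 ± 5.5) on the TR4 side and NDUFV3 (−36.8 ± 6.85) on the other. Complexes II to V had 3 and 2 of 7, with SDHB at 53.8 ± 5.1 and ATP5PO at −47.6 ± 5.23 points. Proteasome genes had 3 and 3 of 10, and cell cycle genes 5 and 3 of 8, with CDC25A, a phosphatase that drives entry into S phase, at 34.5 ± 3.69. Zinc finger ZNF genes had 14 and 11 of 33, with a median of 4.5 points.

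Erythroid factors showed the other order, from few regions. Of 4 ranked, 3 were BCL11A-leaning. They were LYL1 (−47.8 ± 5.87 points) and TCF3 (−42.4 ± 4.38), which encode bHLH partners in the TAL1 complex network, and ZFPM1, the gene of the GATA1 cofactor FOG1 (−28.2 ± 4.84). HMGB2 was TR4-leaning (17.4 ± 5.11). In haem and iron metabolism, PPOX (−54.7 ± 5.12) and FECH (−44.4 ± 7.2), the last enzymes of haem synthesis, leaned to BCL11A, and GLRX5 of iron-sulfur cluster assembly leaned to TR4 (47.6 ± 4.96). ALAD and ISCA2 were not called.

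Globin regulators mostly were not called. Of their 21 core regions 7 could be ranked, and 1 of the 2 at ZBTB7A, the gene of a γ-globin repressor, was the only one called. At chr19:4066731-4067405 its BCL11A-directed ranks were 59.7 to 86.2 and its TR4-directed ranks 9.29 to 59.1, a difference of −47.7 ± 6.83 points (adjusted p = 7.3e-06). At NR2C2 itself, in a region 250 bases from a gene end, ranks were 56.4 to 95 for TR4 and 51 to 93 for BCL11A. They overlapped, and the difference of 8.58 ± 6.26 points was not called. HIC2, MBD2, GATAD2A and EIF2AK1 were not called either, with differences from −10.1 to 17 points.

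The other globin regulators lacked a peak in some libraries and have folds alone. BCL11A had a core region at its own gene (chr2:60553538-60553787) with peaks in all 9 BCL11A-directed libraries and in 6 of the 9 for TR4, and the 3 missing were replicate 3 of each group. KLF1, the erythroid activator, had peaks in 9 and 8. NR2C1, which encodes TR2, the partner of TR4, had peaks in 9 of 9 TR4-directed libraries (folds 40.2 to 192) and 7 of 9 BCL11A-directed ones (folds 4.18 to 18.7). EHMT1, a histone methyltransferase linked to fetal globin silencing, had TR4-directed folds of 43.9 to 110 in 9 libraries and BCL11A-directed peaks in 7. CHD4, MTA2 and HDAC1 of the NuRD complex had peaks in 14, 14 and 17 of the 18 libraries.

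The lean was then read in 2 differences taken from separate libraries, whose tests share 1 variance estimate from all 18. Within clone TB, where the TR4 and HA antibodies meet the same cells, 270 core regions leaned to TR4 and 211 to BCL11A (background 45.6% in either direction, 22.9% and 22.6% by direction). These are 25.05% and 19.57% of the core regions at gene ends, against 16.8% and 31.47% of the 375 other regions. With the MYC antibody in clone T against clone B, where the epitope is the same and the cells differ, 290 and 271 did (background 52%, 26.2% and 25.8%). Both called the same direction at 184 TR4-leaning regions, 68.1% of those within clone TB and 63.4% of those with MYC. For BCL11A-leaning regions the number was 126, which is 59.7% and 46.5%. At 24 core regions the directions were opposite. These overlaps were counted for core regions alone, without a share over all tested regions. Whether they are particular to gene ends was not tested.

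Comparisons that keep the protein and change the clone or the antibody moved fewer ranks. The TR4 antibody in clone T against clone TB called 113 core regions (background 10.6%), and the HA antibody in clone B against clone TB called 249 (23.3%). Ranks by −log10 q gave 27 and 111 for these, and centred log2 folds gave 255 for the first. In clone T the MYC and TR4 antibodies differed at 31 (3.85%), and in clone B the MYC and HA antibodies at 2 (0.275%). The target difference itself differed between clone TB and the pair of clones T and B at 218 core regions (21.6%, limma interaction contrast). Clone and protein cannot be told apart in the MYC comparison of clone T with clone B. The smaller counts rest on single libraries: without replicate 1, 2 or 3 of TR4 clone TB the 113 became 66, 61 or 73, and without 1 of the first 2 replicates of clone T the 31 became 14 to 18. The 2 became 5 without MYC clone B replicate 2, and 8 or 4 without HA clone B replicate 2 or 3.

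MYC ranks in clone TB followed TR4 more than BCL11A. Across the core regions the mean MYC clone TB rank had r = 0.765 with the TR4-directed ranks and 0.313 with the BCL11A-directed ranks. Within clone TB, r was 0.827 with the TR4 antibody and 0.387 with the HA antibody. These libraries share the cells of 1 clone. In the 3 MYC libraries, TR4-leaning regions had median ranks of 71.4, 73.6 and 74.8. BCL11A-leaning regions had 44.1, 41.8 and 44.3, close to regions not called (41.9, 43.9 and 38.8). At NAA15 the MYC clone TB ranks were 94.6, 93.9 and 95, inside the TR4-directed range. At TBC1D12 they were 78.6, 80.9 and 83.1, below all BCL11A-directed ranks and above all TR4-directed ranks.

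Summits of different proteins lay further apart than summits of the same protein. For each pair of the 18 libraries the median distance between summits was taken over the 1078 core regions. It was 12 to 24 bases between TR4-directed libraries (mean 18, 36 pairs) and 18 to 35 between BCL11A-directed libraries (mean 25.8, 36 pairs). Between libraries of different proteins it was 27 to 46 bases (mean 38.2, 81 pairs). Different-protein pairs exceeded same-protein pairs by 16.4 bases on average (exact permutation of library labels, p = 4.11e-05, the smallest that 9 libraries against 9 can give, adjusted p = 0.000165 over 4 tests). The exact test was added after seeing the data. It treats the 18 libraries as exchangeable, although they form 6 groups of 3 from 3 clones. Its p therefore does not measure the spread among groups or clones. The planned test on random label sets gave an estimate of 2e-05, below that floor by sampling. In clone TB alone, TR4 and HA libraries were 31 to 43 bases apart. Without replicate 3 the excess was 16.9 bases (exact permutation p = 0.00216, the smallest possible for these labels), and in 726 core regions with 1 peak in every library it was 12.2.

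At 130 core regions (12.1%) the median TR4 and BCL11A summits fell on the same base. Per region, they were 20 bases apart at the median (quartiles 5 and 67.8). They lay within 25 bases at 588 core regions (54.6%) and over 100 bases apart at 158 (14.7%). The gap was 33 bases at the median in TR4-leaning regions, 15 in BCL11A-leaning and 19 in those not called. HUS1 and NAA15 had a gap of 0, PTAR1 51, TBC1D12 84, EIF2A 196 and SHC1 611 bases.

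Both proteins had their summits just upstream of the 5′ end of the gene record. At 908 core regions with a known strand the TR4 summit was upstream at 79.6% and the BCL11A summit at 80.3%. The median position per library was −101.9 ± 1.61 bases for TR4 and −105.8 ± 2.37 for BCL11A (SD, n = 9 libraries each). The 3.89-base shift passed an exact permutation test (p = 0.00136, adjusted p = 0.00272), and within clone TB it was not resolved (p = 0.2 by exact permutation, where 3 against 3 cannot go below 0.1). The distance to the nearest gene end did not differ beyond the spread (144 and 144 bases, exact permutation p = 0.949). Peak width averaged 280.8 ± 46.6 bases for TR4 and 306.6 ± 54.7 for BCL11A (exact permutation p = 0.294, adjusted p = 0.393). Without replicate 3 the width difference was −31 bases with an unadjusted p = 0.0152 (exact permutation). The tests over all 6 groups permute single libraries, so these p-values too do not measure the spread among groups or clones.

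**Figure D4:**
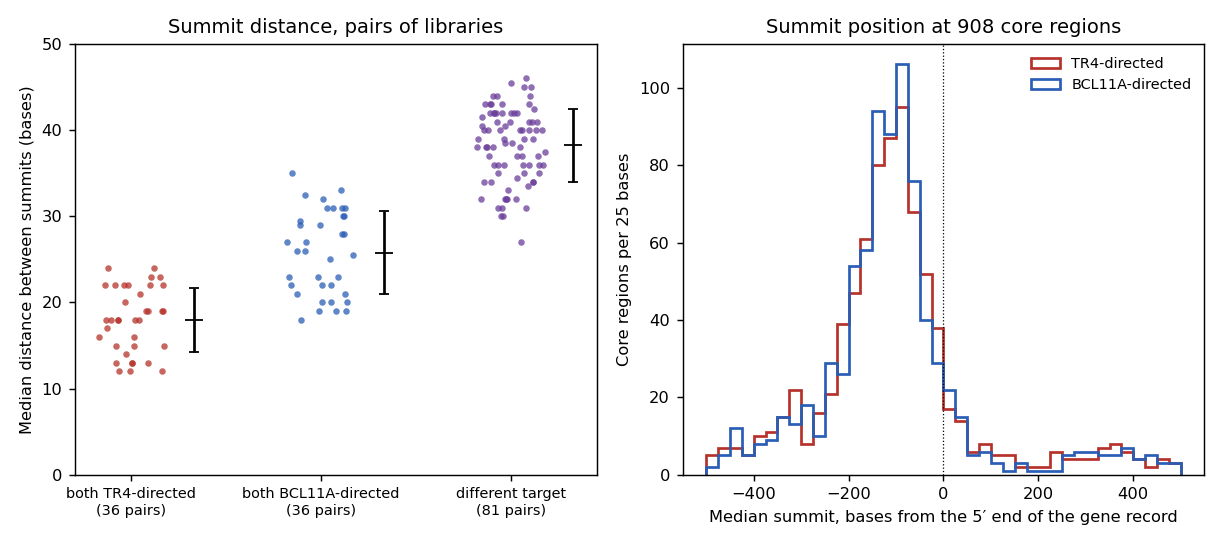
Left, median distance between peak summits in bases for each pair of libraries, by the proteins of the pair, with mean and SD as bars. Right, number of core regions per 25 bases by median summit position from the 5′ end (0 on the axis), drawn from 500 bases before to 500 after. Different-protein pairs average 38.2 bases against 18 and 25.8, and both histograms peak just before 0.

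RefSeq promoters of 250 bases before to 50 bases after a start overlapped 2411 core regions (75.3%). Each motif was searched on both strands. As a whole these promoters held the nuclear receptor motif AGGTCA about as often as all 22012 promoters, 12% against 11.9%. The same held for the BCL11A motif TGACCA, 9.21% against 9.32%. The motifs that were more frequent were those of general promoter factors. The SP/KLF motif GGGCGG was in 82.4% against 56.3%, the CCAAT box in 51.1% against 34.7%, the ETS motif CCGGAAGT in 13% against 5.31% and the YY1 motif GCCATNTT in 13.6% against 7.36%. The E-box CACGTG stood at 11.3% against 8.32%, the NRF1 motif at 2.94% against 1.49% and the GATA motif AGATAAG at 0.995% against 2.29%. A full DR1 element (AGGTCA repeated in the same direction with 1 base between) was in 0.0415% against 0.0227%, and with up to 1 mismatch in 0.581% against 0.318%. Against the 13380 promoters of genes with any target peak at an end, the gaps were smaller for the motifs whose shares follow. There the shares were 67.3% for SP/KLF, 35.6% for CCAAT, 8.09% for ETS, 9.64% for YY1, 9.78% for the E-box, 2.15% for NRF1 and 1.61% for GATA. The shares of AGGTCA and TGACCA there were 10.45% and 8.28%, so core promoters held both somewhat more often. No test was run on these shares. AGGTCA reads TGACCT on the other strand, which differs from TGACCA in the last letter alone, and each DR1 match also holds AGGTCA.

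Some motifs differed in share between the leaning classes, and none of these differences was tested. AGGTCA was in 21.9% of 279 TR4-leaning promoters, 8.89% of 270 BCL11A-leaning and 12.7% of 283 not called. The ETS motif was in 16.5%, 8.15% and 13.4%. The order was the opposite for TGACCA, in 6.81%, 12.6% and 10.2%. CCAAT boxes were in 44.8% of TR4-leaning, 57% of BCL11A-leaning and 58.3% of promoters not called. The SP/KLF motif stood at 83.2%, 89.6% and 84.1%. Shares were close for the E-box (12.5%, 12.6% and 11.3%), the YY1 motif (15.8%, 13.3% and 15.9%) and the NRF1 motif (2.51%, 2.22% and 2.83%).

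Summits lay near these matches to different degrees. In 109 ranked core regions with both summits and an AGGTCA match in the promoter window, the TR4 summit was 36.5 bases from the nearest match at the median and the BCL11A summit 55.5. TR4 was nearer in 63 and BCL11A in 30. For 358 with a CCAAT box the distances were 36 and 30 bases, with BCL11A nearer in 170 and TR4 in 140. For 62 with TGACCA they were 74.5 and 56.5 bases, with BCL11A nearer in 38 and TR4 in 18. For 566 with the SP/KLF motif they were 29.5 and 32, with TR4 nearer in 263 and BCL11A in 221. For 88 with the ETS motif they were 54 and 71.5 bases, with TR4 nearer in 47 and BCL11A in 26. For 103 with the YY1 motif they were 87.5 and 99.5 (TR4 nearer in 47, BCL11A in 43). For 84 with the E-box both were 79.5 (39 and 29). A nearer TR4 summit was thus not particular to AGGTCA. These are descriptions of letters in a window and do not mark sites.

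**Figure D5:**
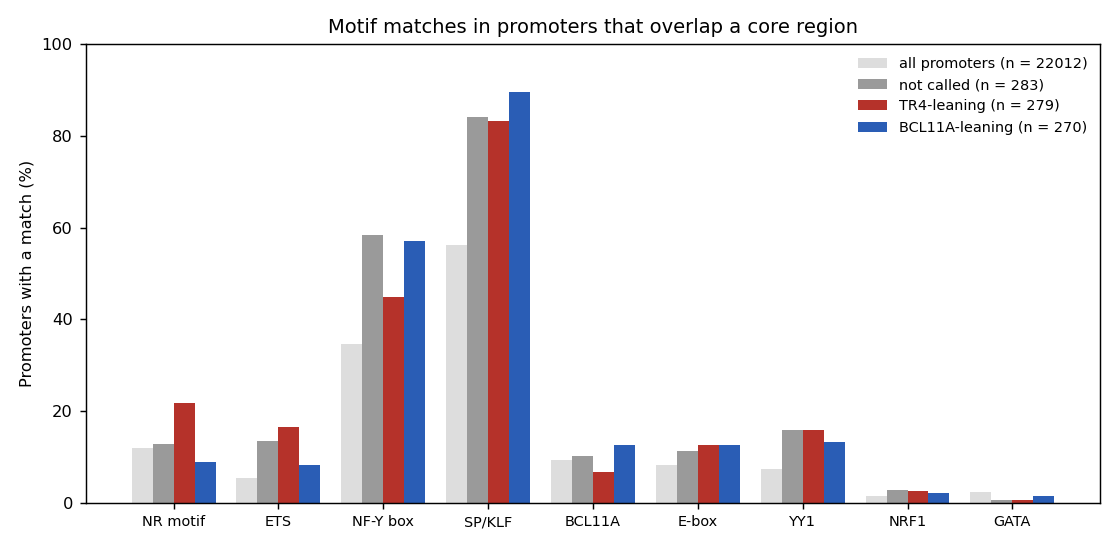
Percent of promoters with at least 1 match (vertical axis) for 9 motifs, in all RefSeq promoters and in those that overlap core regions not called, TR4-leaning and BCL11A-leaning. The nuclear receptor motif (NR) stands at 21.9% in TR4-leaning against 8.89% in BCL11A-leaning promoters, and the CCAAT box, labelled NF-Y for the factor that binds it, at 44.8% against 57%.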

How the data were processed

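The 24 CUT&RUN peak lists were used as deposited. Per the submitters' processing notes, the tools were Trimmomatic, Bowtie2, Picard, SAMtools and MACS2 2.1.4 on GRCh38. Their settings, and whether IgG served as a control, are not given in the sources used here. Peaks were called per sample by the authors. The deposited lists give each peak's fold enrichment over the authors' background (a ratio), its −log10 q and its summit offset, and all 3 are the authors' own values. The lowest −log10 q in the deposited target lists was 2 to 2.05, so weaker peaks are not in them, and list length sets what can be seen.

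Gene ends, strands and promoters came from RefSeq (GRCh38.p14), with a strand for 15813 of 19974 genes. Exon and intron annotation was not used here. Ranks of fold were compared with limma 3.58.1 in R 4.3.3 on 6 group means over the 1453 regions with a peak in all 18 libraries, with Benjamini-Hochberg adjustment. Single values per library were compared by two-sided permutation of libraries (Python 3.11.15, pandas 2.3.3, numpy 2.4.6). Simulated data had 200 of 1453 regions changed by 1 on the log2 scale. There the target comparison recovered 84%, none in the wrong direction, with 13 false calls. The simulation had independent noise, no clone, antibody or replicate effect, and fewer changed regions than were called in the data. It therefore does not give the rate of false calls in these data. The MYC clone TB libraries entered no call.

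Named regions are the 8 of lowest p for either protein, the 8 with the highest mean rank, up to 3 genes of each list by libraries with a peak and then rank, every globin regulator with a core region, and those nearest the threshold. Other genes were named after their values were seen. The regions and gene lists were chosen with earlier results of these data known. Printed promoters follow the first regions of each class that overlap a RefSeq promoter. NR2C2 had none in the table. Some named items are not reported here.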

Additional observations from a re-analysis of the deposited data

Results flagged for a closer look

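At 12 named core regions the TR4-minus-BCL11A rank difference was not the same within clone TB (TR4 against HA antibody) as between clones T and B (MYC antibody), by limma's interaction contrast with Benjamini-Hochberg adjustment over 1453 regions. Positive values mean a difference further toward TR4 within clone TB. Among all core regions tested 218 passed this test, and 21.6% of all tested regions did. No explanation was tested.

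Of these regions TPRN had the widest difference, with −28.1 points within clone TB and −91.9 between clones, a difference of 63.8 (adjusted p = 0.000351). The lean to BCL11A was also smaller within clone TB at PLA2G6 (−34.2 against −81.5, difference 47.3, adjusted p = 0.00118) and TCF3 (−18.9 against −65.1, difference 46.2, adjusted p = 0.00543). ISCA2 moved from −30.2 between clones to 6.78 within clone TB, a difference of 37 (adjusted p = 0.0379).

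The lean to TR4 was larger within clone TB at genes of cell division and others. CDC25A stood at 68.9 against 15.9 (difference 53.1, adjusted p = 0.000599). PCNA, the replication clamp, stood at 50.1 against 2.34 (difference 47.8, adjusted p = 0.000575). SCAP stood at 90.9 against 50.4 (difference 40.5, adjusted p = 0.00245), GLRX5 at 68.7 against 32.1 (difference 36.5, adjusted p = 0.0396) and the proteasome subunit PSMD9 at 65.4 against 30.8 (difference 34.6, adjusted p = 0.022).

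The order was the other way at 3 regions. EIF2A stood at 49.4 within clone TB against 87.1 (difference −37.8, adjusted p = 0.00201). TARS1, a tRNA synthetase, stood at −50.8 against −5.28 (difference −45.5, adjusted p = 0.0301), and MRPL34 at −46.4 against −13.2 (difference −33.2, adjusted p = 0.0443).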

How the results depend on the processing

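What a peak list can show is limited by its length, and weaker peaks are missing from it, so absence of a peak is not absence of binding. The number of core regions became 520 with lists of equal length and 1078 with a peak required in all 3 libraries of each group, and the share of genes 3.34% and 6.81%. Leaving out 1 library gave 1874 to 3202 core regions, and 11.2% to 18.4% of genes. With 1 MYC clone TB library left out, 3179 to 3199 of the 3203 core regions had MYC peaks in the other 2. Merging at 50 shared bases gave 3204, a −log10 q of at least 5 gave 2673, a 500-base window 3013, and keeping IgG regions 3221.

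Without replicate 3 in any group 3077 regions could be ranked, so counts were higher by construction: 978 and 972 for the target comparison, 682 and 558 within clone TB, 766 and 756 for MYC, 325 for TR4 clone T against TB, 528 for HA clone B against TB, 55 for MYC against TR4 in clone T and 427 for the interaction. The width difference then was −31 bases (exact permutation p = 0.0152). Ranks by −log10 q gave 27 for TR4 clone T against TB, 111 for HA clone B against TB and 5 for MYC against HA in clone B. Centred log2 folds gave 255 for TR4 clone T against TB, 57 for MYC against TR4 in clone T and 0 for MYC against HA in clone B. An adjusted p under 0.01 gave 48, 150 and 9 for TR4 clone T against TB, HA clone B against TB and MYC against TR4 in clone T, and 106 for the interaction. The causes were not tested beyond the number of regions. These settings for the comparisons within a protein, and the interaction, were chosen after seeing the data.

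Leaving out 1 library gave 338 to 361 TR4-leaning and 333 to 352 BCL11A-leaning core regions, 235 to 276 and 187 to 224 within clone TB, and 253 to 298 and 237 to 274 for MYC. It gave 61 to 123 for TR4 clone T against TB, 219 to 260 for HA clone B against TB, 14 to 38 for MYC against TR4 in clone T, 2 to 8 for MYC against HA in clone B and 170 to 234 for the interaction. The summit excess ranged from 15.7 to 17.1 bases, the width difference from −35.3 to −15.9, the position shift from 3.49 to 4.37 and the gene-end difference from −0.792 to 1.02 bases.

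Of the 694 leaning calls, 645 were made in the same direction by −log10 q ranks with 0 opposite, 654 by centred log2 folds with 1 opposite, and 581 without the MYC antibody with 1 opposite. The ETS share of core promoters was 1.6 times that of promoters of genes with any target peak. Over 73 single regions and their settings, 1678 of 1752 values kept direction and side of the threshold, 52 fell short of it, 22 newly passed it and 0 reversed.

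A fit with the replicate number as a block called 353 and 350 core regions for the target comparison, 278 and 230 within clone TB, 298 and 288 for MYC, 132, 278, 34 and 2 for the comparisons within a protein and 244 for the interaction. Same-numbered libraries had deviation correlations of −0.00761 to 0.28 (median 0.0785), with 16 of 45 over 0.1. Libraries of different numbers had −0.219 to 0.122 (median −0.0504). The main fits and permutations did not pair libraries by number. As a hint from the data, 17 of 18 libraries correlated best with one of their own number.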
